A study of Mus musculus with 8 samples.

Results

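The genes described here carry the JAK-STAT signal: the 4 Janus kinases Jak1, Jak2, Jak3 and Tyk2, the transcription factors Stat3, Stat5a and Stat5b, and the feedback inhibitors Socs1, Socs2 and Socs3. These 10 genes were taken by name from a list of 48404 genes measured by RNA sequencing of small brain vessels, and all 10 had both a fold change and a p-value, as 19294 genes did. The study compared 4 libraries from mice after tMCAO, a stroke model in which an artery to one side of the brain is blocked with a filament and later freed. These stood against 4 libraries from sham-operated mice. Both groups were wild-type C57BL6, and the labels give the material as brain microvessels, with ribosomal RNA removed from total RNA. The sources used here give neither mouse age nor sex, nor how long the artery was blocked or when tissue was taken.

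JAK-STAT signalling is a short route from a cytokine at the cell surface to the nucleus. A cytokine draws receptor chains together, the JAK kinases bound to those chains phosphorylate each other and the receptor, and STAT proteins dock there, are phosphorylated in turn, pair up and enter the nucleus as transcription factors. SOCS genes are among the genes that STATs switch on, and their proteins bind the kinases or receptors and shut the signal down, so SOCS transcripts are widely used as a readout of the pathway. In brain vessels and glia the route is best known from the interleukin-6 family, whose shared receptor chain gp130 signals mainly through JAK1 and STAT3.

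The values are those of the authors' deposited table, 1 log2 fold change and 1 p-value per gene for the whole comparison, so no value per library, no spread between libraries and no sequencing depth can be given. The column header names no numerator. Positive values were taken to mean more RNA after tMCAO because the injury cytokines Il6, Il11 and Lif have large positive values, so their own direction is not an independent result. The p-values were taken to be already adjusted over all genes by the Benjamini-Hochberg method, and a gene was called at an adjusted p under 0.05. An implied standard error, and from it an implied 95% interval, was worked back from each p and fold change. The labels do not say whether each library is a different mouse, and the p-values then speak only of how much these libraries varied.

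Of the 10 genes, 7 rose after tMCAO, none fell and 3 were not called. An unadjusted p was recovered from the deposited one (the submitters' processing notes name DESeq2, without a role). With that p under 0.05, Socs2 (adjusted p = 0.0917) would join those that rose and again none would fall. The share of all genes at that threshold was not counted. At an adjusted p under 0.1, where Socs2 joins too, 3671 of all 19294 tested genes were higher and 4045 lower. If the deposited p is itself unadjusted, adjusting it leaves 4 genes that rose (Jak3, Stat3, Stat5a and Socs3), with adjusted p = 0.056 for Jak1, 0.0825 for Jak2 and 0.0863 for Socs1. Across all 19294 tested genes 32.8% were called, 15.2% higher and 17.6% lower. Socs3 stood far above the rest, 9.09-fold higher by the authors' deposited table, while Stat3, Jak3 and Stat5a rose between 2.11-fold and 2.81-fold. The median log2 fold change of the 10 genes was 0.71, beside -0.0008 for all tested genes, and 9 of the 10 values were positive. Each family held both called and uncalled genes: 3 of 4 kinases, 2 of 3 STAT factors and 2 of 3 SOCS genes rose. When fold changes were expressed relative to endothelial markers or ribosomal protein genes, only Socs3, Stat3 and Jak3 were still called higher. Jak2, Tyk2, Stat5b and Socs2 were called lower under both, as was Jak1 relative to ribosomal protein genes. Of all 19294 genes, 13647 were called lower under the first and 15066 under the second. Among the 76 ribosomal protein genes 72 had themselves risen. Relative to them the recalculated adjusted p was 0.0483 for Jak3 and 0.0284 for Stat3, against 1.80e-12 for Socs3. The error of the reference median was left out of these values.

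**Figure D1:**
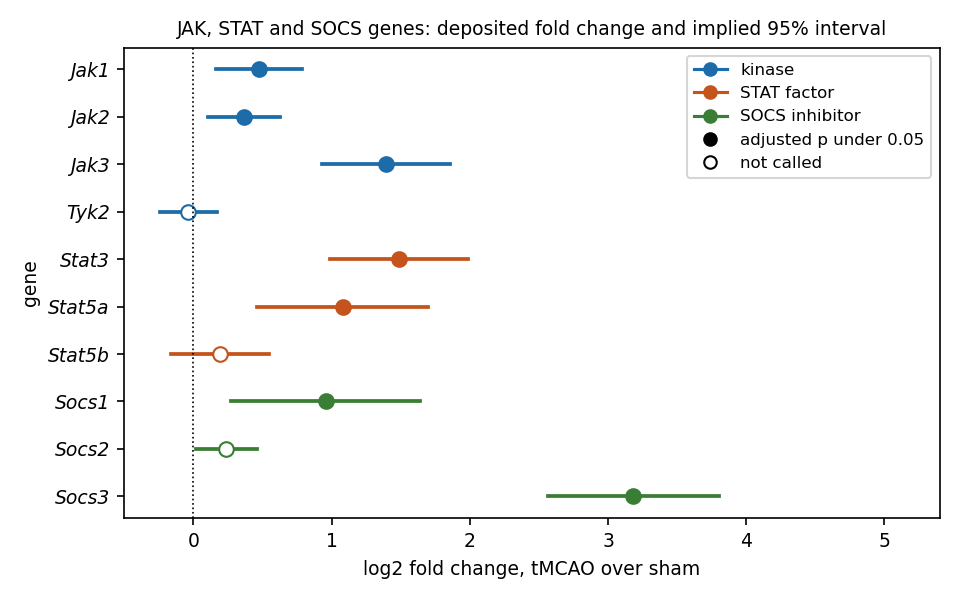
Log2 fold change of each gene, tMCAO over sham, with its implied 95% interval as a horizontal line; colours mark kinases, STAT factors and SOCS inhibitors, filled circles an adjusted p under 0.05. Socs3 at 3.18 lies apart from all other genes, and the intervals of Tyk2 and Stat5b span 0; relative to ribosomal protein genes Jak1, Jak2, Stat5b and Socs2 would lie below 0.

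Among the kinases the log2 values ran from -0.04 for Tyk2 to 1.40 for Jak3. Jak1, which serves gp130 and the interferon receptors, was 1.39-fold higher by the authors' deposited table (0.47 on the log2 scale with an implied standard error of 0.16, adjusted p = 0.0131). Jak2, the kinase of the erythropoietin, growth hormone and interleukin-3 type receptors, was 1.29-fold higher there (0.37 on the log2 scale with an implied standard error of 0.13, adjusted p = 0.0219). Both rises were small, and their implied intervals reached down to 1.12-fold for Jak1 and 1.08-fold for Jak2. Relative to endothelial markers Jak1 would stand at -0.27 and Jak2 at -0.38, a shift of 0.74 that is the same for every gene and under which 13647 of 19294 genes would be called lower. In GRCm38 Jak1 lies on chromosome 4 from 101152367 to 101265282 (minus strand) and Jak2 on chromosome 19 from 29251828 to 29313080 (plus strand).

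Jak3, which pairs with the common gamma chain Il2rg in blood cells, was 2.63-fold higher by the authors' deposited table (1.40 on the log2 scale with an implied interval of 0.93 to 1.86, adjusted p = 2.37e-07). Only 2.30% of tested genes had a larger log2 fold change than Jak3, against 17.4% for Jak1 and 22.4% for Jak2. Il2rg itself, the receptor chain of Jak3, chosen after its values were seen, stood at 1.71 on the log2 scale (adjusted p = 1.66e-05) in the authors' deposited table. Jak3 lies on chromosome 8 from 71676296 to 71690575 (plus strand) and is best known from lymphocytes and myeloid cells. Of 10 neutrophil markers 6 had a p, and all 6 rose, at log2 fold changes of 2.26 to 3.87. The other 4 had a fold change and no p. A marker scarce in sham may have a p only because it was high after tMCAO, so that count is not an independent result. Of 10 monocyte and macrophage markers 5 rose, beside 15.2% of all tested genes. None of the 3 lymphocyte markers with a p was called, and 9 more had no p. The part of these cells in the Jak3 value was not tested, and in bulk RNA more cells of a type and more RNA per cell cannot be told apart.

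Tyk2, the fourth kinase, which serves the interferon and interleukin-12 type receptors, was the one gene with a negative value. It stood at -0.04 on the log2 scale in the authors' deposited table (implied interval -0.24 to 0.17, adjusted p = 0.824). Only 10.1% of tested genes had a smaller implied standard error than Tyk2. As a fold, the implied interval ran from 0.846 to 1.13 of the sham level. The size of implied errors was checked on simulated data for called genes only, and Tyk2 was not called. Relative to endothelial markers the Tyk2 value would be -0.78 and called. Tyk2 lies on chromosome 9 from 21104068 to 21131243 (minus strand). The Tyk2 and Jak3 log2 values lay 1.43 apart, a difference that was not tested because the covariance between genes is not known from the table.

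Among the STAT factors the log2 values ran from 0.19 for Stat5b to 1.49 for Stat3. Stat3, the main factor of interleukin-6 type cytokines and of reactive glia and acute phase responses, was 2.81-fold higher by the authors' deposited table (1.49 on the log2 scale with an implied standard error of 0.25, adjusted p = 3.13e-07). Its implied interval ran from 1.99-fold to 3.97-fold, and 1.97% of tested genes had a larger log2 fold change. Stat5a, a factor of the colony-stimulating factor, prolactin and interleukin-2 type receptors, was 2.11-fold higher by the authors' deposited table (1.08 on the log2 scale with an implied standard error of 0.32, adjusted p = 0.00379). The spread behind Stat5a was wider, with an implied interval from 1.38-fold to 3.25-fold. Stat5b, the close copy of Stat5a best known from growth hormone signalling, was not called (log2 fold change 0.19, implied interval -0.16 to 0.54, adjusted p = 0.441, authors' deposited table). The Stat5a value exceeded that of Stat5b by 0.89 on the log2 scale, and that difference was not tested. Relative to endothelial markers Stat3 would remain called, Stat5a at 0.34 would not be, and Stat5b at -0.55 would be called lower.

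**Figure D2:**
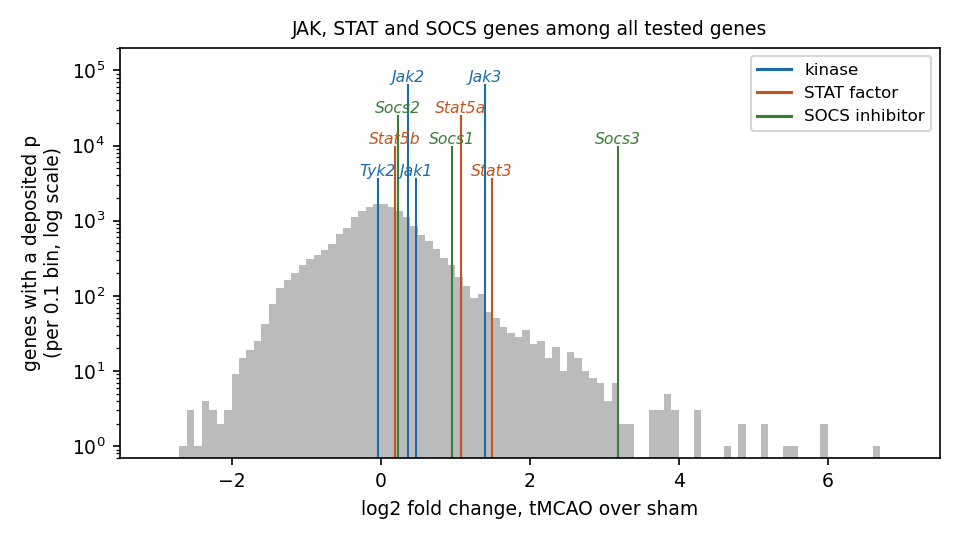
Histogram of the log2 fold changes of all 19294 tested genes, tMCAO over sham, in bins of 0.1 on a logarithmic count axis, with a coloured line at each JAK, STAT and SOCS gene (line height has no meaning). Tyk2, Stat5b, Socs2, Jak2 and Jak1 lie in the bulk of the distribution, Socs1, Stat5a, Jak3 and Stat3 on its upper shoulder and Socs3 in the sparse tail; centred on ribosomal protein genes, Jak1, Jak2, Stat5b and Socs2 would move below 0.

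Stat5b, Stat5a and Stat3 are neighbours on chromosome 11, in that order. In the GENCODE M21 annotation of GRCm38, Stat5b spans 100780731 to 100850724 on the minus strand, Stat5a 100859351 to 100885169 on the plus strand and Stat3 100885098 to 100939540 on the minus strand. Stat5a and Stat5b thus start back to back 8627 bases apart, while Stat5a and Stat3 run towards each other and overlap by 72 bases at their last exons, 1.01% of the exonic bases of Stat5a. Whether reads were counted by strand is not stated by any source used here, so reads in those 72 bases cannot be assigned. The neighbours did not share 1 direction. In the authors' deposited table Kcnh4, a potassium channel gene, fell (log2 fold change -1.15, adjusted p = 1.28e-04), Rab5c, an endosome GTPase gene, rose (0.78, adjusted p = 0.00146), and neither Ghdc (0.38, adjusted p = 0.166) nor the caveola gene Cavin1 (0.45, adjusted p = 0.333) was called.

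**Figure D3:**
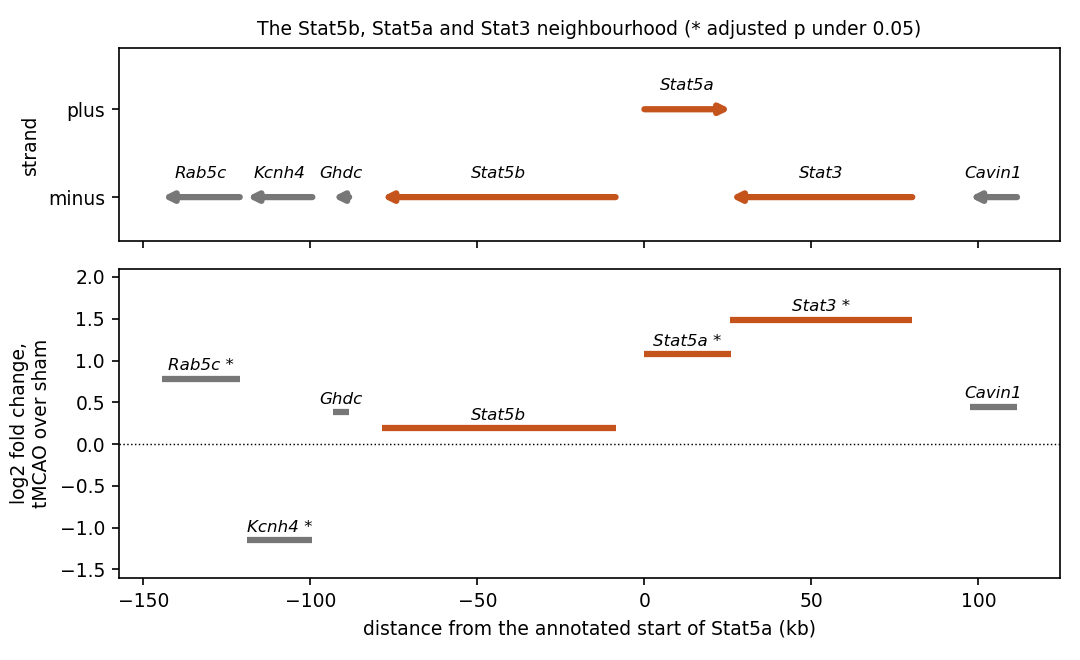
Genes within 50 kb of Stat3, Stat5a or Stat5b that had a p-value, drawn to scale by distance in kb from the annotated start of Stat5a, with arrows for strand (top) and the log2 fold change, tMCAO over sham, as a bar over each gene (bottom; asterisk, adjusted p under 0.05). Stat5a at 1.08 and Stat3 at 1.49 stand beside Stat5b at 0.19 and Kcnh4 at -1.15; relative to ribosomal protein genes Stat5b would lie below 0.

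Stat5a and Stat5b are near-copies, so the transcripts were compared for shared stretches. Of all 50-base stretches in annotated Stat5b transcripts, 11.0% also occurred in Stat5a, and 8.21% of those of Stat5a occurred in Stat5b. With stretches of 100 bases the shares were 4.79% and 3.44%. Reads from such stretches have no single source, and no source used here says how they were counted. Jak3 shared 7.21% of its 50-base stretches with other genes, mostly with Insl3, which lies inside its last part on the same strand, and Tyk2 shared 7.52%, mostly with the antisense gene 1700084C06Rik, which covers 8.07% of its exonic bases. Socs2 shared 4.58%, mostly with Gm9847. Jak1, Jak2, Socs1 and Socs3 shared no stretch of 50 bases with another annotated gene, and Stat3 shared 0.555%.

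The SOCS genes, all 3 on minus strands, spanned the widest range of the families. In GRCm38 Socs1 lies on chromosome 16 from 10782240 to 10785536, Socs2 on chromosome 10 from 95385362 to 95417180 and Socs3 on chromosome 11 from 117966079 to 117970047. Socs3, the inhibitor induced by STAT3 that binds gp130 and JAK kinases, was 9.09-fold higher by the authors' deposited table (3.18 on the log2 scale with an implied standard error of 0.32, adjusted p = 4.40e-21). Only 32 of 19294 genes had a larger log2 fold change and 22 a smaller p, and the implied interval ran from 5.92-fold to 13.9-fold. Socs1, the inhibitor best known for stopping interferon signals, was 1.94-fold higher (0.96 on the log2 scale with an implied standard error of 0.35, adjusted p = 0.0234, authors' deposited table). Socs1 had the widest implied error of the 10 genes, with an interval from 1.21-fold to 3.12-fold, and relative to endothelial markers it would not be called. Socs2, the inhibitor tied to growth hormone and STAT5, missed the threshold at 1.18-fold (log2 fold change 0.24, implied interval 0.02 to 0.46, adjusted p = 0.0917, authors' deposited table). The Socs3 value exceeded those of Socs1 and Socs2 by 2.23 and 2.95 on the log2 scale, and the interval of Socs3 did not touch that of any other member. The deposited z-score of Socs3, its fold change in standard deviations over protein-coding genes, was 4.86, and those of the other 9 genes ran from -0.15 for Tyk2 to 2.22 for Stat3.

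STAT dimers recognise a short palindrome, so the promoters of these genes are shown for the SOCS genes with a match and for Cish, another SOCS family gene. RefSeq sequences (build GRCm38.p6), from 250 bases before to 50 after each start, were found for 9 of the 10 genes, giving 11 windows. The motifs searched on both strands were TTCNNNGAA, the interferon-gamma activated (GAS) type, TTCNNNNGAA, its wider form, and GAAANNGAAA, the interferon-stimulated (ISRE) type. They occurred in 8.30%, 6.95% and 3.44% of all 32851 windows. Among the 10 genes Socs3 held 1 GAS match, beginning at base -154 from its RefSeq start, and Socs1 held 2 overlapping ISRE matches, at bases -83 and -77. Stat3, Jak3, Stat5a and the other genes with a window held none. Cish, a classic STAT5 target, held 2 GAS matches at bases 1 and 12 after its start and was not called (log2 fold change 0.19, adjusted p = 0.436, authors' deposited table). Stat2, which rose (0.34 on the log2 scale, adjusted p = 6.17e-04, authors' deposited table), held 1 wide GAS match at base -210 and 1 ISRE match at base -222, and Stat4, which was not called, held 1 ISRE match at base -97. A match is a string of letters and not a measured binding site, and windows without one can have sites elsewhere. Capitals mark the matches in these windows, written along the gene's strand: Socs3 at chr11:117969317-117969616 (minus), Socs1 at chr16:10785487-10785786 (minus) and Cish at chr9:107296409-107296708 (plus).
Socs3: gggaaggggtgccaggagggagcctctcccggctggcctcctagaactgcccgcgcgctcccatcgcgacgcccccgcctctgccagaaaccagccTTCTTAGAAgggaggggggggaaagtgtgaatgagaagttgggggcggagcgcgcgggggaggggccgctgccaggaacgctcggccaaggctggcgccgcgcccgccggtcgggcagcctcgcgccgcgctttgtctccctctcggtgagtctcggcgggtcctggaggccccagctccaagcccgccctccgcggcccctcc
Socs1: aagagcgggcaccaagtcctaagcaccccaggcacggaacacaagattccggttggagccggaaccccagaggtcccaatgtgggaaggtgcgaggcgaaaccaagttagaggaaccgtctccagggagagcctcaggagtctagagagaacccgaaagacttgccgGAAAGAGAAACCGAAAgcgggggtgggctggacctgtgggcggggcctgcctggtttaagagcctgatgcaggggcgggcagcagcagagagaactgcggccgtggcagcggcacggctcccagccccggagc
Cish: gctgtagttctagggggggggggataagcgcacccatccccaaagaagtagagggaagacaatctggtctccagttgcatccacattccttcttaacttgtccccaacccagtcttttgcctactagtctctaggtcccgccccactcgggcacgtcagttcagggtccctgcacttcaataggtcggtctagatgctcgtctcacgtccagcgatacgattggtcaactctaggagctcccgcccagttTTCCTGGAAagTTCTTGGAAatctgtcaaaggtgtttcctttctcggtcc

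Further STAT and SOCS genes had values between -0.35 and 0.49 on the log2 scale. Of 8 such genes, all with a p, 2 rose and 1 fell, with a median of 0.21 on the log2 scale. Among all tested genes 15.2% were higher and 17.6% lower, and 8 genes are too few to be set apart from those shares. Stat2, a factor of type I interferon signalling, rose by 0.34 (adjusted p = 6.17e-04) and Socs4 by 0.38 (adjusted p = 0.0315) on the log2 scale in the authors' deposited table. Socs7 fell (log2 fold change -0.35, adjusted p = 0.00111, authors' deposited table). Stat6, the interleukin-4 factor, was not called at 0.49 (adjusted p = 0.197), nor was Stat4, the interleukin-12 factor, at 0.12 (adjusted p = 0.834), by the authors' deposited table. Socs5 at 0.23 and Socs6 at 0.09 were not called either in the authors' deposited table. Relative to ribosomal protein genes none of these 8 would be higher and 7 would be lower. That shift calls 328 of all 19294 tested genes higher and 15066 lower, so most genes fall under it.

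Upstream of the kinases, ligand genes held the largest values in the pathway. Of 33 cytokine and hormone genes that act through JAKs, 14 had a p, 12 had a fold change alone and 7 had neither. Among the 14, 7 rose and none fell, beside 15.2% higher and 17.6% lower of all tested genes. A ligand scarce in sham may have a p only because it was high after tMCAO, so this count is not an independent result. Il6, Il11 and Lif among them also set the sign of the comparison. In the authors' deposited table Il11 stood at 6.64 on the log2 scale, Il6 at 5.92, Csf3 at 5.59 and Lif at 5.14, all above Socs3 at 3.18. Osm, the oncostatin M gene of the same gp130 family, rose by 1.76 (adjusted p = 1.10e-04, authors' deposited table). The interferon genes Ifng and Ifnb1, singled out after their values were looked up, were listed without a fold change. Relative to ribosomal protein genes 6 ligand genes would be higher and 5 lower, beside 328 higher and 15066 lower of all 19294 tested genes.

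Receptor chains rose more often than they fell. Of 32 chains 13 rose (40.6%) and 2 fell, beside 15.2% higher and 17.6% lower of all tested genes. The median of the chains was 0.43 on the log2 scale. Osmr, the oncostatin M chain that pairs with gp130, was 3.86-fold higher by the authors' deposited table (adjusted p = 3.67e-09). Il6st, which encodes gp130, rose by 0.79 (adjusted p = 0.0253) and the interleukin-6 binding chain Il6ra by 0.77 (adjusted p = 0.00315) on the log2 scale there. Lifr, the chain that pairs with gp130 for LIF, went the other way and fell 1.40-fold (log2 fold change -0.49, adjusted p = 3.30e-05, authors' deposited table). Il4ra stood at 2.58 and the beta chains Csf2rb and Csf2rb2, a JAK2-bound pair of similar sequence that may share reads, at 1.98 and 2.12 on the log2 scale in the authors' deposited table. Relative to ribosomal protein genes Il6st and Il6ra would lie below 0, and the list would hold 5 higher and 13 lower chains. All 19294 tested genes would then hold 328 higher and 15066 lower.

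The other restraints on the pathway had values under 1 on the log2 scale. Of 12 phosphatase, PIAS and adaptor genes 5 rose and none fell, beside 15.2% higher and 17.6% lower of all tested genes. The median of the list was 0.29 on the log2 scale. In the authors' deposited table Ptpn1, the phosphatase PTP1B that acts on JAK2 and TYK2, rose by 0.60 (adjusted p = 7.35e-05) and Sh2b3, the adaptor LNK that restrains JAK2, by 0.62 (adjusted p = 0.00655). Ptprc, which encodes the leukocyte surface phosphatase CD45, rose by 0.96 (adjusted p = 1.02e-04) and Ptpn6, the blood cell phosphatase SHP-1, by 0.98 (adjusted p = 0.00606) on the log2 scale in the authors' deposited table. Both are leukocyte genes. The 6 neutrophil markers with a p given above were higher in the same comparison, a count that is not an independent result. Of 8 microglia markers 5 were lower. The part of either cell type in the Ptprc and Ptpn6 values was not tested. None of the 4 PIAS genes was called. Relative to ribosomal protein genes no gene of this list would be higher and 8 would be lower, beside 328 and 15066 of all 19294 tested genes.

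Downstream, the counts of called genes were set out by the STAT that is known to drive them. Of 25 genes known as STAT3 targets, 23 had a p, of which 21 rose and none fell, with a median of 1.44 on the log2 scale. Among all tested genes 15.2% were higher and 17.6% lower. The other 2 targets had a fold change and no p. A target scarce in sham may have a p only because it was high after tMCAO, so that count is not an independent result. In the authors' deposited table Serpina3n stood at 3.83, the acute phase gene Saa3 at 5.18, the siderophore-binding Lcn2 at 3.65 and the protease inhibitor Timp1 at 3.89 on the log2 scale. Of 9 genes known as STAT5 targets 3 rose and 1 fell, with a median of 0.20, and the kinase gene Pim2 was the one that fell (log2 fold change -0.54, adjusted p = 0.00461, authors' deposited table). The STAT5 genes that rose were Osm, Pim1 at 1.29 and the cyclin gene Ccnd1 at 1.26 (authors' deposited table), and Pim1 and Ccnd1 stand in the STAT3 list too. Many of these genes answer to other factors as well, the lists were drawn up with earlier results of these data known, and the difference between the lists was not tested. Relative to ribosomal protein genes 11 of the STAT3 list would be higher and 2 lower, against 1 and 6 of the STAT5 list. Of all 19294 tested genes 328 would be higher and 15066 lower.

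**Figure D4:**
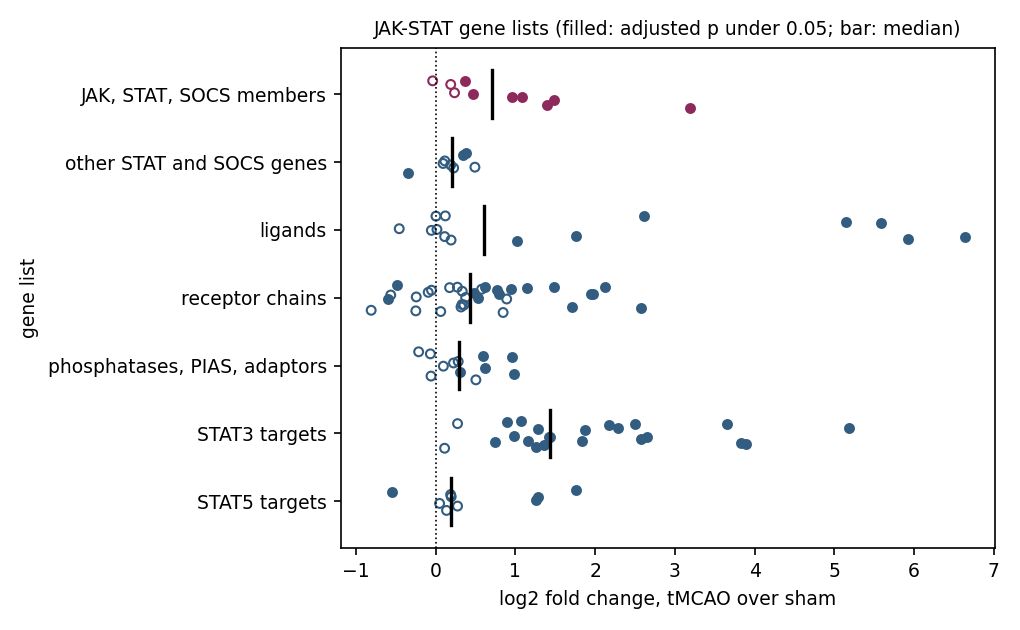
Log2 fold change, tMCAO over sham, of each gene with a p-value in the JAK, STAT and SOCS set (purple) and in 6 related lists (blue); filled points have an adjusted p under 0.05, vertical bars are list medians and vertical jitter has no meaning. Ligands reach 6.64, STAT3 targets centre on 1.44, and the other STAT and SOCS genes centre on 0.21. Relative to ribosomal protein genes every list median other than that of STAT3 targets would fall below 0, and the median of all tested genes would be -0.91.

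Markers of several cell types also changed in the same comparison, in which 15.2% of all tested genes were higher and 17.6% lower. Of 15 endothelial markers 10 rose and none fell (median log2 fold change 0.74), among them Emcn at 1.14 and Robo4 at 0.89 in the authors' deposited table. All 10 neuron markers fell (median -1.09), as did 5 of 6 oligodendrocyte and 5 of 8 microglia markers, while none of 6 astrocyte markers was called. Of 10 mural markers 2 rose and 1 fell, near the shares of all tested genes, and 2 of 5 fibroblast markers rose. Which markers were at 0 cannot be read from fold changes. Because endothelial markers rose by a median of 0.74, the 10 genes were also expressed relative to them. Stat3 at 0.75, Jak3 at 0.65 and Socs3 at 2.44 then remained above 0 and called, Stat5a and Socs1 were positive and not called, Jak1 was negative and not called, and the other 4 genes were called lower. That shift moves the median of all genes to -0.74, and centring on ribosomal protein genes moves it to -0.91, so both place most genes below 0.

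**Figure D5:**
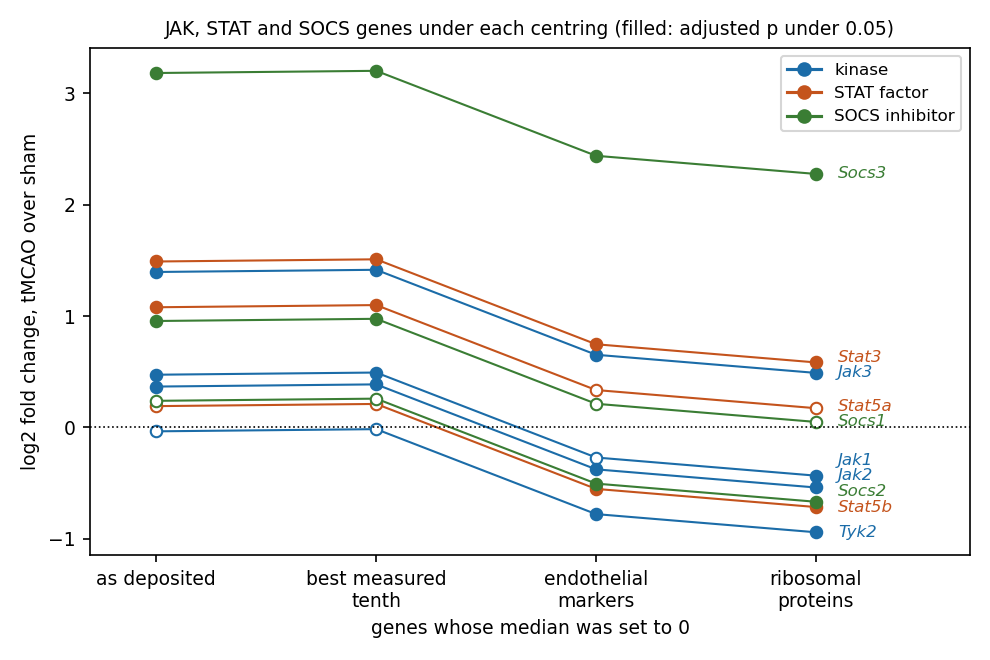
Log2 fold change, tMCAO over sham, of the JAK, STAT and SOCS genes as deposited and after setting the median of the 1929 best measured genes, of the endothelial markers or of the ribosomal protein genes to 0; filled circles have an adjusted p under 0.05. Socs3, Stat3 and Jak3 stay above 0 and filled in all 4 columns, whereas Jak1, Jak2, Stat5b and Socs2 cross 0 in the last 2 columns. In the ribosomal protein column Jak3 is near the threshold (adjusted p = 0.0483), and Stat3 has 0.0284 and Socs3 1.80e-12.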

How the data were processed

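RNA from brain microvessels was sequenced as 4 tMCAO and 4 sham libraries, grouped by the title labels. The submitters' processing notes name DESeq2, HTSeq, STAR, cutadapt and bcl2fastq 2.19 beside the build GRCm38 (mm10), without roles, options or an annotation release. Per the file headers, the authors deposited a log2 fold change and a p-value per gene for the whole comparison, and a z-score for protein-coding genes. That deposited score is the fold change's distance from the mean of its sheet (0.0623 on the log2 scale) in standard deviations (0.6427). Columns per library: 0, so depth is unknown, and no library could be left out.

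The deposited p-value was taken as already adjusted (Benjamini-Hochberg), since 3214 values each occur in more than 1 gene, a pattern that this adjustment leaves. Each was multiplied by its rank and divided by 19294 to recover an unadjusted p, and the log2 fold change over the matching normal deviate gave the implied standard error (Python 3.11.15, scipy 1.17.1). The step was tested on simulated data. There the size of the implied errors was compared for called genes only, so not for genes like Tyk2, Stat5b and Socs2. The implied errors assume fold changes that were not shrunken towards 0, which no source used here states and which was not tested.

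Members and lists were chosen with earlier results of these data known, and some results are not reported here. Values were given for all members, for 8 other STAT and SOCS genes, for 4 ligands and 4 receptors of the gp130 family, for the 4 genes of each pathway list with the smallest adjusted p, for the 2 of cell type lists where cited, and for neighbours of Stat3, Stat5a and Stat5b. Outside that rule, and chosen with their values seen, are the neighbours of other members, the gamma chain receptor genes, Ifng, Ifnb1 and Epor. Alternatives were other thresholds, a second adjustment, 3 centrings, protein-coding genes alone and a test against a log2 change of 0.5. The 3 centrings used 1929 best measured genes, 76 ribosomal protein genes and 15 endothelial markers.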

Additional observations from a re-analysis of the deposited data

How the results depend on the processing

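No paired analysis was possible because the deposited values hold no library and the groups share no replicate numbers; leaving out replicates and count-based tests were not run for the same reason. The count of the 10 genes called higher, 7, became 8 at an adjusted p under 0.1 and was 7 after centring on the best measured genes or adjusting over protein-coding genes. It was 4 if the p is unadjusted and adjusted again, and 4 at an adjusted p under 0.01 (Jak3, Stat3, Stat5a and Socs3 both times), and 3 against a log2 change of 0.5 (Jak3, Stat3 and Socs3). Over all genes those settings gave 1941, 1885 and 355 higher calls (2941 as deposited), and the last gave 156 lower calls (3391 as deposited). An adjusted p under 0.1 gave 3671 higher and 4045 lower calls over all genes.

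Centring on ribosomal protein genes (72 of 76 of which rose) gave 3 of the 10 genes higher and 5 lower, and centring on endothelial markers 3 and 4. Jak1 then reversed to -0.43 and -0.27, Jak2 to -0.54 and -0.38, Stat5b to -0.72 and -0.55 and Socs2 to -0.67 and -0.51. All genes gave 328 higher and 15066 lower calls under the first and 434 and 13647 under the second. Pathway genes (48 higher and 4 lower as deposited) gave 22 and 39, then 25 and 31, and 24 and 0 against 0.5; cell type markers (25 and 21) gave 10 and 38, then 10 and 36, and 10 and 4 against 0.5. With no depth or library values, precision rests on the implied errors alone.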

Other observations

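Of 13 genes with a p-value within 50 kb of a JAK or SOCS member, 3 rose and 4 fell. Among all tested genes 15.2% were higher and 17.6% lower, and no difference from those shares was tested. These 13 genes lie outside the rule for named genes. Jak3 ends 181 bases from the end of B3gnt3, a glycosyltransferase gene on the opposite strand that rose by 2.11 on the log2 scale by the authors' deposited table (adjusted p = 6.22e-09). Fcho1, beyond B3gnt3 and 17812 bases from Jak3, fell (log2 fold change -0.81, adjusted p = 1.33e-04, authors' deposited table). On the other side of Jak3, 4539 bases away, the synaptic gene Unc13a fell too (-0.88, adjusted p = 6.71e-05, authors' deposited table). Near Tyk2, Raver1 rose by 0.32 (adjusted p = 7.07e-04, authors' deposited table) and the phosphodiesterase gene Pde4a fell (-0.66, adjusted p = 0.0257). Pgs1, a mitochondrial lipid synthesis gene 16245 bases from Socs3, rose by 0.80 (adjusted p = 1.55e-06, authors' deposited table). Clec16a, 37362 bases from Socs1, fell (-0.35, adjusted p = 0.0431, authors' deposited table). The other 6 were not called, among them Raver2, whose end overlaps that of Jak1 by 4 bases (-0.35, adjusted p = 0.0568, authors' deposited table). Whether the values of a gene and its neighbour are related was not tested.

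Chains of the common gamma chain receptors that use Jak3 were singled out after their values were seen. By the authors' deposited table Il2rg rose 3.28-fold and Il21r 1.53-fold (adjusted p = 0.039 for Il21r), beside Il4ra given above, while Il15ra (log2 fold change 0.27, adjusted p = 0.083), Il7r (0.32, adjusted p = 0.58), Il2rb (0.58, adjusted p = 0.117) and Il2ra (-0.09, adjusted p = 0.898) were not called. Epor, the erythropoietin receptor that signals through JAK2 and STAT5, fell 1.52-fold (adjusted p = 0.0119, authors' deposited table).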
